A study of Mus musculus with 8 samples.

Results

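Red cell membrane skeleton genes were described in LT-HSC libraries of asrij KO and asrij floxed mice. They are 8 genes, chosen by symbol for the membrane proteins that they encode: Sptb, Ank1, Epb41, Epb42, Slc4a1, Rhag, Rhd and Tmod1. Each had a count, among 39107 mouse genes with a count in any library, and all 8 passed the filter on low counts that left 21902 genes for the test. Asrij is the protein of the mouse gene Ociad1, and LT-HSCs are the bone marrow stem cells that sustain blood formation over a long time. The comparison asks how their transcriptome differs when asrij is lost. Of the 8 libraries, 4 came from homozygous asrij floxed mice (replicates 1, 3, 4 and 5) and 4 from asrij whole-body KO mice (replicates 2, 3, 4 and 5), with 1 library for each mouse. The floxed mice are the control group and carry the conditional allele themselves, and neither the labels nor the methods name a Cre or a treatment for these mice. The labels give an age of 6 months for all mice, and the study used both sexes and sorted these cells by surface proteins of primitive marrow cells (LSK CD150+ CD48+). For other experiments of the study the methods give LT-HSCs as CD48-, so which of these gates the libraries represent is not settled, and they are called LT-HSC here as in the labels. A whole-body KO lacks the gene in every cell type, so changes within the sorted cells and changes in other cells of the animal cannot be told apart.

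A red cell keeps its shape with a protein mesh under the membrane. In this mesh, long strands of spectrin are joined by short actin filaments, and protein 4.1 holds the joints together. Ankyrin and protein 4.2 tie the mesh to the anion exchanger band 3 and to the Rh proteins, and loss of such a tie is known to cause fragile, rounded red cells. Most of these genes are known for a strong rise as red cell precursors mature, and some, such as Epb41, are also used by other cells. Strictly, Sptb, Ank1, Epb41 and Tmod1 encode skeleton proteins, Epb42 a linker, and Slc4a1, Rhag and Rhd proteins that span the membrane.

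The sequence before the start of a gene is shown for 3 members. No RefSeq window was available for Ank1 and Slc4a1. Of the other members, the 3 shown are those for which at least 200 bases lie outside every annotated exon. Rhag and Rhd encode related subunits of the Rh complex, and Sptb encodes the spectrin chain to which Ank1 binds. Capitals mark hexamers that GATA factors of red cell precursors are known to bind, on either strand. They are AGATAA with its variant AGATAG, and in the same way TGATAA with its variant TGATAG. The letters CCAAT on either strand are in capitals too. The sequences are from RefSeq (build GRCm38.p6), 5′ to 3′ on the strand of the gene, and lie at chr17:40810899-40811125 on the plus strand for Rhag, chr4:134864286-134864535 on the plus strand for Rhd and chr12:76710548-76710797 on the minus strand for Sptb.
Rhag: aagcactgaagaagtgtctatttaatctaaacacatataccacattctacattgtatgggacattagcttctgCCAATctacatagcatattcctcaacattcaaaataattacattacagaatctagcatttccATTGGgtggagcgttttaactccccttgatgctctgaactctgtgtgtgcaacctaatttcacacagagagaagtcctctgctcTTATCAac
Rhd: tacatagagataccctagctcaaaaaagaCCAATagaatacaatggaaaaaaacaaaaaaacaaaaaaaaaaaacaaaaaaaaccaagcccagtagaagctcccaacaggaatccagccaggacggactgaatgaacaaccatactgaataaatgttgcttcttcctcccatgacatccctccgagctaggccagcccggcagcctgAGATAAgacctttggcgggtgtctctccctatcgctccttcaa
Sptb: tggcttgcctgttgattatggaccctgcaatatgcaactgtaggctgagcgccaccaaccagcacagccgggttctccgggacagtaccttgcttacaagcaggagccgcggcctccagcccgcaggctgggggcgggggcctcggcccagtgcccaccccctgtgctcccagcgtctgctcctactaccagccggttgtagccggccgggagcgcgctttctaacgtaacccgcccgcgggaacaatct
In Rhag, the bases TTATCA, which are TGATAA on the other strand, begin 31 bases before the RefSeq start, and in Rhd AGATAA begins 43 bases before it. Sptb holds none of these hexamers and no CCAAT, and 65.2% of its bases are G or C, against 37.9% in Rhag and 43.6% in Rhd. Of 32536 windows of 250 bases before a RefSeq start, 26.5% hold at least 1 of the 4 hexamers and 33.8% hold CCAAT. Of the other letters searched on both strands, CCACACCC (3.2% of windows) and TATAAA (12.3% of windows) were in none of the 3 sequences, and CANNTG (66.2% of windows) was in that of Sptb. No hexamer overlapped a CCAAT in these sequences. A match of letters is a description of the window and was not tested for binding.

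The libraries held 23412830 to 44874879 gene counts, and single members had 1083 to 134640 counts in a library, so counting error was small beside the differences between libraries. The targeted gene Ociad1 was lower in KO, with 31.3 to 66.9 CPM in floxed and 11.7 to 19.7 CPM in KO libraries (log2 fold change -1.58, adjusted p = 0.0249 by edgeR's quasi-likelihood test with Benjamini-Hochberg adjustment). CPM are counts scaled to a common library size after TMM normalization. Among markers of LT-HSCs, Kit lay between 46.8 and 60.2 CPM, but those more particular to LT-HSCs were low in all libraries. Procr lay between 0.142 and 0.962 CPM and Slamf1 between 0.881 and 4.39 CPM, and Hoxb5 was at 0 in KO replicates 3 and 5 and at most 0.256 CPM elsewhere. By contrast, Ngp, a gene of neutrophil granules, lay between 3437 and 18427 CPM, while Csf1r, another of the myeloid markers, lay between 78.9 and 142 CPM. Haemoglobin genes took 2.85 to 7.67% of the gene counts in floxed and 12.2 to 24.3% in KO libraries. In bulk RNA, more cells of a type and more RNA per cell cannot be told apart.

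All 8 members had a higher mean in KO than in floxed LT-HSCs, but none passed the test over all 8 libraries. In floxed replicates 1, 4 and 5 each member lay below the KO libraries, whereas floxed replicate 3 lay among or above them for every member other than Rhd. A gene was called when its adjusted p was under 0.05 and its log2 fold change above 1.5 or below -1.5, the thresholds in the methods of the study. Of the 21902 genes, 0.452% were called higher in KO and 1.22% were higher at an adjusted p under 0.05 alone, and 0 of the 8 members met either rule. At an unadjusted p under 0.05, 6 of the 8 members were higher, against 9.63% of all genes. DESeq2 called 0 members, against 0.881% of all genes called higher, and gave 1 member (Rhd, log2 fold change 1.49) an adjusted p under 0.05, against 5.12% of all genes. Limma-voom called 0 members, against 0.516% of all genes, and gave 0 members an adjusted p under 0.05, against 1.2% of all genes. The median log2 fold change of the members was 0.87, against -0.006 over all genes tested.

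**Figure D1:**
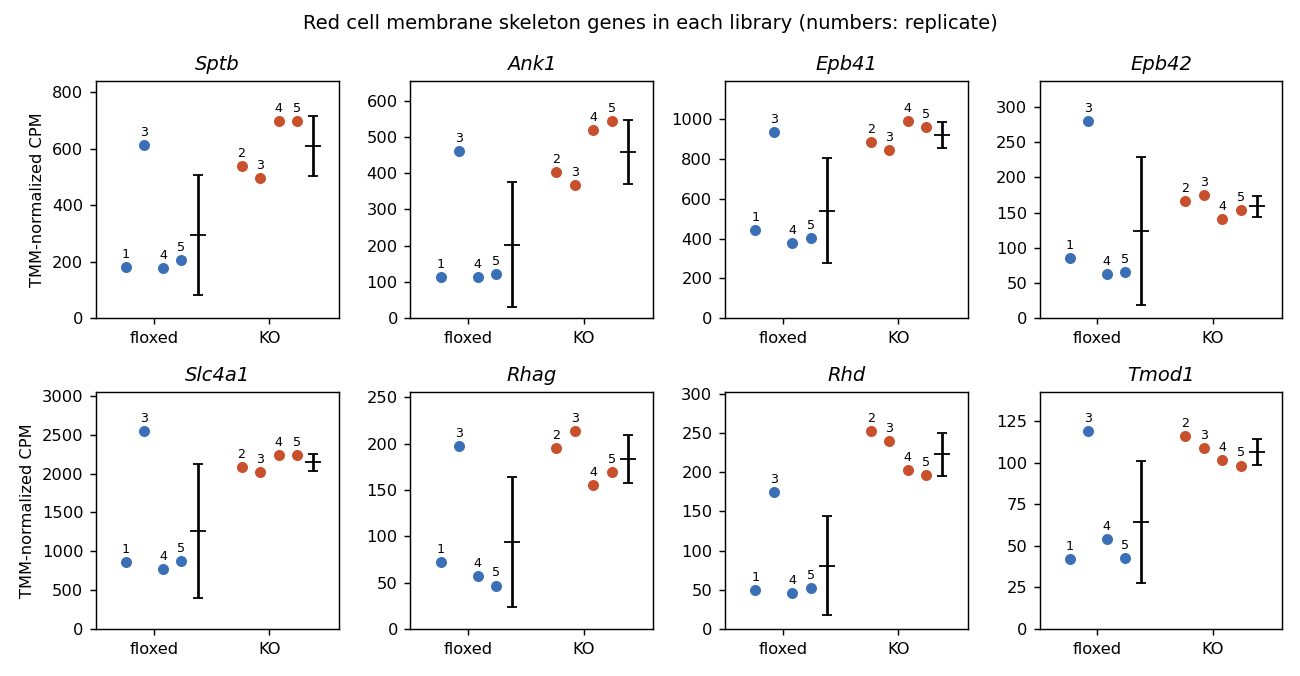
TMM-normalized CPM of the 8 genes in each library, with blue points for floxed and orange points for KO, the replicate number above each point, and bars for the mean ± SD (n = 4). Floxed replicate 3 stands among or above the KO libraries for every gene other than Rhd, for which its 175 CPM lie below the lowest KO library at 197 CPM.

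Sptb encodes the β chain of red cell spectrin, the main strand of the mesh. It lies on chromosome 12, from 76580488 to 76710547 on the minus strand (GRCm38, as for all positions given here). Floxed replicates 1, 3, 4 and 5 had 181, 614, 178 and 207 CPM, whereas KO replicates 2, 3, 4 and 5 had 540, 495, 698 and 700 CPM. Floxed replicate 3 lay between the pairs of KO libraries, and the other 3 floxed libraries lay below all of them. The means were 295 ± 213 CPM in floxed and 608 ± 106 CPM in KO (SD, n = 4), a log2 fold change of 1.04 (SE 0.41, adjusted p = 0.175 by edgeR's quasi-likelihood test).

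Ank1 encodes red cell ankyrin, which binds spectrin on one side and band 3 on the other. The gene spans chromosome 8 from 22974882 to 23150494 on the plus strand. Its level was 113, 460, 114 and 122 CPM in the floxed libraries and 403, 366, 520 and 545 CPM in the KO libraries, in the order given for Sptb. The order of the libraries was the same as for Sptb in that floxed replicate 3 lay between KO replicates 2 and 3 and KO replicates 4 and 5. The log2 fold change was 1.18 (SE 0.47, adjusted p = 0.178 by edgeR's quasi-likelihood test).

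Epb41 encodes protein 4.1R, which strengthens the contact of spectrin with actin. Its span on chromosome 4 runs from 131923413 to 132075321 on the minus strand. The floxed libraries had 445, 935, 380 and 403 CPM and the KO libraries 887, 845, 994 and 959 CPM, so that only floxed replicate 3 reached the KO range. The log2 fold change was 0.77 (SE 0.30, adjusted p = 0.175 by edgeR's quasi-likelihood test).

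Tmod1 encodes tropomodulin 1, which caps the pointed ends of the actin filaments in the joints. The gene is on chromosome 4 from 46038935 to 46116032 on the plus strand. The floxed libraries had 41.8, 119, 54.0 and 42.6 CPM and the KO libraries 116, 109, 102 and 98.3 CPM, with floxed replicate 3 above all KO libraries. The log2 fold change was 0.72 (SE 0.32, adjusted p = 0.227 by edgeR's quasi-likelihood test).

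Epb42 encodes protein 4.2, which holds ankyrin to band 3. Its position is chromosome 2 from 121017891 to 121037072 on the minus strand. The floxed libraries had 86.0, 281, 63.1 and 65.5 CPM and the KO libraries 167, 175, 141 and 153 CPM. Floxed replicate 3 was 1.76 times the KO mean, the largest such ratio among the 8 members, and Epb42 had the smallest difference between genotypes, a log2 fold change of 0.36 (SE 0.45, adjusted p = 0.694 by edgeR's quasi-likelihood test).

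Slc4a1 encodes band 3, the chloride-bicarbonate exchanger on which the ankyrin complex is built. The gene is on chromosome 11 from 102348824 to 102365280 on the minus strand. The floxed libraries had 857, 2546, 769 and 874 CPM and the KO libraries 2082, 2026, 2236 and 2244 CPM. Floxed replicate 3 again lay above all KO libraries, whose own values differed little, with an SD of 110 CPM around 2147 CPM. The log2 fold change was 0.77 (SE 0.39, adjusted p = 0.288 by edgeR's quasi-likelihood test).

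Rhag encodes the Rh-associated glycoprotein, a membrane channel without which Rh proteins do not reach the surface. Its position is chromosome 17 from 40811126 to 40840754 on the plus strand. The floxed libraries had 72.1, 198, 57.5 and 46.9 CPM and the KO libraries 196, 213, 155 and 170 CPM, so that floxed replicate 3 lay within the KO range. The log2 fold change was 0.97 (SE 0.42, adjusted p = 0.211 by edgeR's quasi-likelihood test).

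Rhd encodes the Rh blood group protein of the mouse, the partner of Rhag in the membrane. The gene spans chromosome 4 from 134864536 to 134896172 on the plus strand. The floxed libraries had 50.3, 175, 46.0 and 52.3 CPM and the KO libraries 252, 240, 202.8 and 197 CPM. Every KO library lay above every floxed library, as for 7.1% of all genes tested, and no other member showed this. The means were 80.9 ± 62.7 CPM in floxed and 223 ± 27.3 CPM in KO (SD, n = 4), a log2 fold change of 1.46, the largest of the members (SE 0.42, adjusted p = 0.0847 by edgeR's quasi-likelihood test).

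The members kept much the same order of levels in both genotypes. Per kilobase of spliced transcript, Slc4a1 had the highest level in KO libraries, 472 ± 24.2 CPM, followed by Epb41 with 182 ± 13.3 CPM and Rhd with 147 ± 18.0 CPM (SD, n = 4). Rhag, Sptb, Ank1, Epb42 and Tmod1 followed with means from 78.5 down to 33.6 CPM per kilobase. The ranges over the 4 KO libraries overlapped between Epb41 and Rhd, between Rhag, Sptb and Ank1, and between Epb42 and Tmod1. Within the KO libraries the higher gene of each neighbouring pair was higher in 4 of 4 libraries, other than Rhag over Sptb, which held in 3. In floxed libraries Slc4a1 led with 278 ± 189 CPM per kilobase, Tmod1 was last with 20.4 ± 11.7 CPM per kilobase, and Epb42 stood before Sptb in the order, although it was the higher of these genes in 2 of 4 libraries. The counts were made over whole transcript spans with introns, so a level per kilobase of spliced transcript is a rough scale.

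Without floxed replicate 3, all 8 members were higher in KO at an adjusted p of 0.0016 or lower, and 4 were called. In that fit 8.9% of all genes were higher at an adjusted p under 0.05 and 2.47% were called higher. The log2 fold changes of the 4 called members were 1.70 ± 0.17 for Sptb, 1.99 ± 0.17 for Ank1, 1.65 ± 0.18 for Rhag and 2.18 ± 0.14 for Rhd (SE, 3 floxed against 4 KO libraries), and those of the others ranged from 1.17 for Epb42 to 1.38 for Slc4a1. The level in floxed replicate 3 was 2.28 times (Epb41) to 3.95 times (Ank1) the mean of the other 3 floxed libraries. This library is not marked by the labels, and it was deposited as a floxed library, so the fit with all 8 libraries remains the result. Its Ociad1 level, 66.9 CPM, was the highest of the 8 libraries. It also had the most genes with a count, 34365. Why the members were high in it was not tested.

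**Figure D2:**
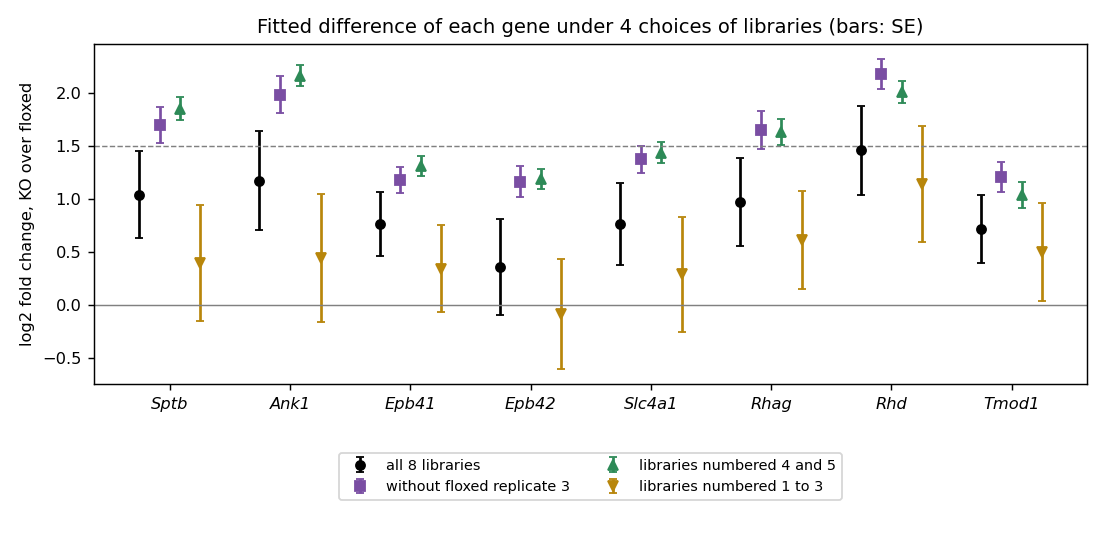
Log2 fold change (KO over floxed) with its SE for each gene in 4 choices of libraries, with a dashed line at 1.5. Without floxed replicate 3, and in the libraries numbered 4 and 5, Sptb, Ank1, Rhag and Rhd lie above 1.5, whereas in the libraries numbered 1 to 3 all values lie between -0.08 and 1.15.

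The members passed the test in the libraries numbered 4 and 5 and not in those numbered 1 to 3. Across genes, deviations from the genotype means correlated between floxed and KO libraries within numbers 1 to 3 and within 4 and 5. Within these groups r was from 0.359 to 0.711, a grouping seen in the counts that the labels do not name. Between the groups r was from -0.726 to -0.380. Deviations from a genotype mean cancel out over its libraries, so once some pairs correlate, others must be opposed. In libraries 4 and 5 of both genotypes, all 8 members were higher in KO at an adjusted p of 0.00021 or lower, with a median log2 fold change of 1.54, and 4 were called, while 16.3% of all genes were higher at an adjusted p under 0.05 and 3.26% were called higher. In libraries 1 to 3, which include floxed replicate 3, the median was 0.42, no member had an adjusted p below 0.338, and 2 genes of all tested (0.00855%) were called higher. With a term for these 2 groups of libraries, Rhd was called (log2 fold change 1.57, adjusted p = 0.0155 by edgeR's quasi-likelihood test), and it was the only member called there. Libraries 4 and 5 of a genotype were close to each other, so the p-values there rest on a small spread between 2 mice of each genotype. Whether the difference between genotypes itself differs between the 2 groups was not tested.

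Among the KO libraries, Sptb and Ank1 were higher and Rhag and Rhd lower in replicates 4 and 5 than in replicates 2 and 3. The mean of KO replicates 4 and 5 was 1.35 times that of KO replicates 2 and 3 for Sptb and 1.38 times for Ank1. For Rhag it was 0.796 times, for Rhd 0.812 times, for Epb42 0.862 times and for Tmod1 0.889 times. Within each pair of KO libraries the values of a member were close, as for Sptb with 698 and 700 CPM in replicates 4 and 5. With 2 libraries on each side these ratios are given without a test.

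The counts did not fall evenly along the members. The deposited count of a transcript covers its whole span, so transcripts nested in a longer one give the count of a stretch of the gene. Epb41-218, a transcript at the 3′ end of Epb41 with a span of 13799 bases (chromosome 4, 131923413 to 131937211), held 65.8, 57.2, 86.2 and 82.3% of the Epb41 counts in the floxed libraries and 86.7, 84.5, 91.0 and 90.8% in the KO libraries. The share was lowest in floxed replicates 1 and 3, while floxed replicate 4 lay within the KO range and floxed replicate 5 just below it. Fitted beside all genes, Epb41-218 was higher in KO (log2 fold change 1.13, SE 0.23, adjusted p = 0.0367 by edgeR's quasi-likelihood test), as were 1.24% of all rows, and did not reach the threshold of 1.5. The 138110 bases upstream of it gave a log2 fold change of -0.67 (SE 0.55, adjusted p = 0.528 by edgeR's quasi-likelihood test). Without floxed replicate 3 these values were 1.37 and 0.23. Epb41-218 was 1 of 48 nested transcripts of the members fitted in this way, and these rows were added after the data had been seen.

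In Ank1, the 2441 bases outside the transcript Ank1-204, most of them at the 3′ end, held 28.6, 24.5, 62.5 and 52.1% of the counts in the floxed libraries and 55.2, 51.1, 65.7 and 66.5% in the KO libraries. This stretch was called higher in KO (log2 fold change 1.99, SE 0.37, adjusted p = 0.0309 by edgeR's quasi-likelihood test), as were 0.455% of all rows, and the stretch within Ank1-204 was not (log2 fold change 0.44, adjusted p = 0.71 by the same test). Without floxed replicate 3 they gave 2.33 and 1.58. In all, 48 nested transcripts of the members, and the stretches outside or upstream of one in 5 genes, were fitted as rows. Among them, only the stretch outside Ank1-204, the Epb41 transcript above and another of nearly its span had an adjusted p under 0.05. The rows were added after the data had been seen, and the shares over all rows do not allow for that choice. Past the 3′ end of Ank1-204, the bases up to 23149585 lie within the span of the antisense gene Gm15816. Strand was not used, so the counts of that part cannot be assigned to Ank1 alone. For the shares outside or upstream of a nested transcript in Sptb, Ank1, Epb41, Epb42 and Rhag, no difference between genotypes passed an exact two-sided permutation test over 70 labelings (adjusted p = 0.143 for each of the 5 genes). In Sptb, the stretch outside Sptb-202 held 0.496 to 1.80% of the counts in floxed and 0.456 to 0.814% in KO libraries.

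The share toward the 3′ end moved with the library in other genes too. Over 1054 genes with a suitable nested transcript, the median share at the 3′ end was 58.1, 53.2, 70.5 and 65.5% in floxed replicates 1, 3, 4 and 5, and 66.7, 66.1, 69.9 and 69.6% in KO replicates 2, 3, 4 and 5. It was lowest in floxed replicates 3 and 1, as for Epb41. The part of this library property in the differences of the members was not tested.

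**Figure D3:**
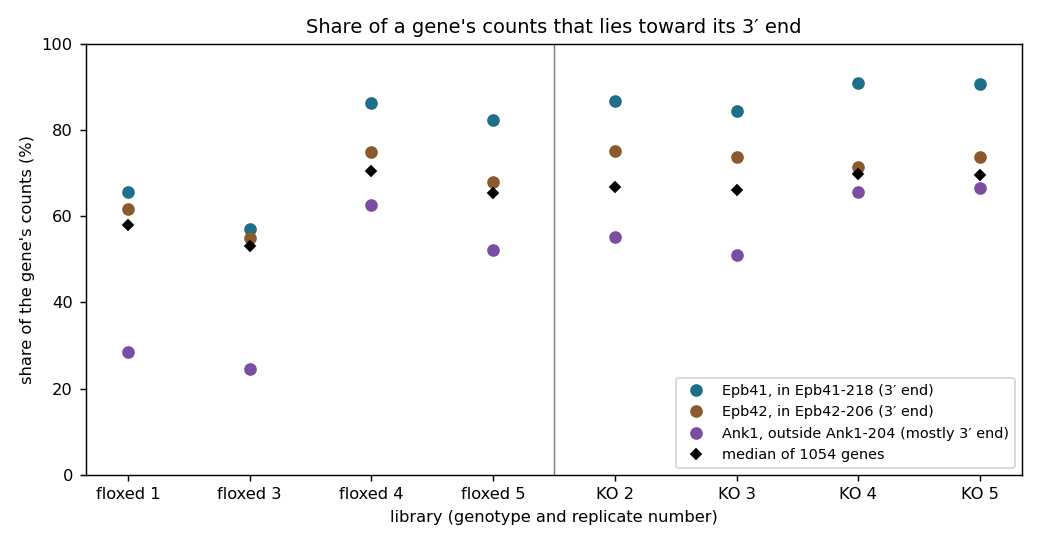
Share (%) of the counts of Epb41, Epb42 and Ank1 that falls in a stretch toward the 3′ end, with the median over 1054 genes as black diamonds, for the 4 floxed and 4 KO libraries. Floxed replicates 1 and 3 have the lowest shares in each series, 24.5% for Ank1 and 57.2% for Epb41 in floxed replicate 3.

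Reads of other genes may be included in some members. No other gene with a count overlaps the counted span of Slc4a1, Epb42, Rhag or Rhd. The antisense gene Gm15816 lies within Ank1, and its span of 10792 bases had 1392, 7446, 1356 and 1347 counts in the floxed and 6828, 6247, 5936 and 6433 counts in the KO libraries, 39.3% of the Ank1 counts in all. These are counts of the same stretch without strand, so they cannot be assigned to either gene. Tstd2 overlaps the 3′ end of Tmod1 by 1287 bases, and its count is the equal of 74.5% of that of Tmod1, of which an unknown part falls in the shared bases. The overlaps of Epb41 with Gm10300 (0.465% of its counts) and with Gm13063, of Sptb with Gm24010, and of Ank1 with Gm15815, Gm44365, Mir486 and Mir3107 held few counts, at most 546 in a library.

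Of 24 other genes of the red cell membrane, 1 was called higher and 0 lower in KO. The list holds partners of the members in the mesh, blood group proteins, transporters and channels. The called gene was Icam4, the Landsteiner-Wiener blood group protein, an adhesion molecule of the band 3 and Rh complexes. Its level was 5.46, 22.1, 10.5 and 12.7 CPM in the floxed and 45.9, 39.3, 60.7 and 56.6 CPM in the KO libraries, with no overlap. Its log2 fold change was 1.99 (SE 0.37, adjusted p = 0.0302 by edgeR's quasi-likelihood test), and a fit of libraries 3 to 5 with a block for same-numbered libraries gave 1.86, with an adjusted p of 0.109 by the same test. Leaving out any 1 library other than floxed replicate 3 brought its adjusted p to between 0.0571 and 0.0927, with log2 fold changes from 1.77 to 2.10. Bsg, which encodes basigin and is named here because of its adjusted p, was the other gene on the list with an adjusted p under 0.05 (log2 fold change 1.19, adjusted p = 0.0248 by the same test), below the threshold on size, and with the block its adjusted p was 0.133.

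The list as a whole had a median log2 fold change of 0.73, and 20 of its 24 members had a value above 0. After Icam4 the largest values were those of Dmtn, which encodes the actin-bundling protein dematin (1.49, adjusted p = 0.0675), and Kcnn4, which encodes the Gardos potassium channel (1.34, adjusted p = 0.0562), both by edgeR's quasi-likelihood test. The lowest values were those of Actb, which encodes β-actin (-0.40), Xk, which encodes the Kx blood group protein (-0.38), and Tpm3, which encodes a tropomyosin (-0.32), and none of the 3 passed the test. Xk was also higher in floxed replicate 3, at 94.9 CPM, than in any other library, and without that library its value was 0.17. Groups did not overlap for 7 of the 24, all higher in KO, as for 7.1% of all genes. Without floxed replicate 3, 18 of the 24 were higher at an adjusted p under 0.05, against 8.9% of all genes, and 9 were called higher, against 2.47%.

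The members have relatives that other cells use in place of the red cell forms. Of the 24 relatives listed, 23 had a count and 20 were tested, and 0 were called in either direction, at 0.452% called higher and 0.74% called lower among all genes. At an unadjusted p under 0.05, 5 were lower and 2 higher, against 12.1% and 9.63% of all genes, and DESeq2 and limma-voom called 0. Their median log2 fold change was -0.31, 13 of the 20 had a value below 0, and Epb41l4a, Slc4a3 and Tmod2 had too few counts for the test. The lowest values were those of Tgm3, an epidermal transglutaminase related to protein 4.2 (-0.93), Slc4a7, a sodium bicarbonate cotransporter (-0.69), and Tmod3, the tropomodulin of most tissues (-0.59). The highest were those of Tmod4, the tropomodulin of skeletal muscle (0.80), Tgm2, tissue transglutaminase (0.78), and Epb41l1, the neuronal form of protein 4.1 (0.72). Every KO library lay below every floxed library for 3 of the 20, as for 7.67% of all genes, and these were Sptan1, Epb41l2 and Tmod3. The reverse held for 1, Epb41l1.

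**Figure D4:**
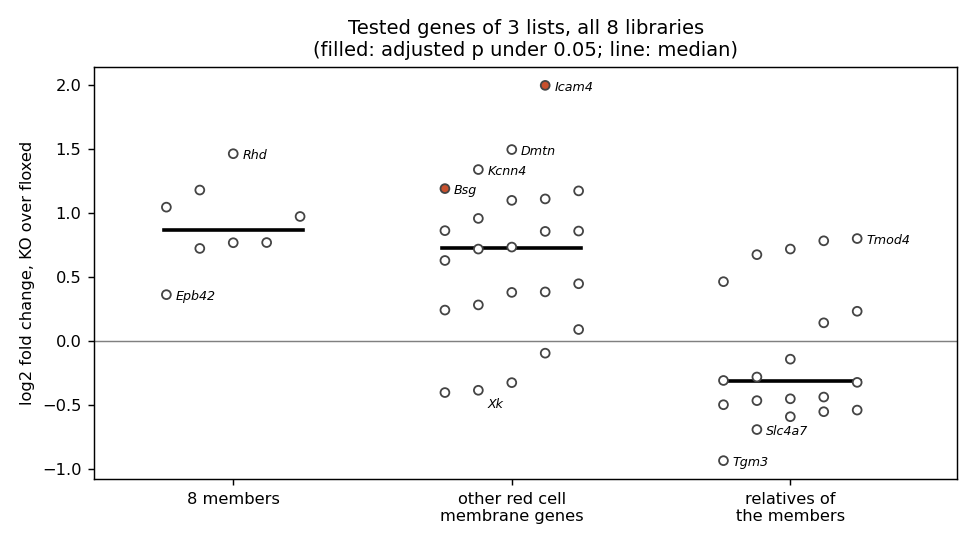
Log2 fold change (KO over floxed) of each tested gene in 3 lists, with filled points for an adjusted p under 0.05 and a line at the median. The medians are 0.87 for the 8 members, 0.73 for the other red cell membrane genes and -0.31 for the relatives, and Icam4 and Bsg are the filled points.

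Whether a member and its relative or partner differed by unequal amounts was compared within libraries, as the difference of their log2(CPM + 1) values. None of the 10 pairs passed after adjustment over the 10 (lowest adjusted p = 0.0571), and 5 reached 0.0286, the smallest p that the exact two-sided permutation test over 70 labelings can give. With 5 of 10 pairs at this smallest p, none of the 5 could pass, whatever its size, so the adjusted test cannot decide whether they differed. Sptb minus Sptbn1, its form in other cells, was -0.01, 2.03, 0.70 and 0.73 in the floxed libraries and 2.29, 2.16, 3.13 and 2.99 in the KO libraries. Here the KO libraries lay above all floxed libraries, floxed replicate 3 included, and the mean difference between genotypes was 1.78. Epb41 minus Epb41l2 was 3.52, 4.18, 3.57 and 3.54 in the floxed and 4.94, 4.85, 5.17 and 5.15 in the KO libraries, a difference of 1.33 without overlap. Tmod1 minus Tmod3 differed by 1.42 (exact two-sided permutation test, p = 0.0571, adjusted p = 0.0952), Slc4a1 minus Slc4a2, an exchanger of many tissues, by 1.25 (p = 0.143, adjusted p = 0.179 by the same exact test) and Ank1 minus Ank3, the ankyrin of epithelia and neurons, by 1.07 (p = 0.257, adjusted p = 0.286 by the same exact test).

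Among partners in the red cell membrane, Rhag minus Rhd was 0.51, 0.18, 0.31 and -0.16 in the floxed libraries and -0.37, -0.17, -0.38 and -0.21 in the KO libraries. The levels of Rhd relative to Rhag were thus higher in all KO libraries, with a difference of -0.49, although floxed replicate 5 and KO replicate 3 were nearly equal. Slc4a1 minus Ank1 was 2.74 ± 0.19 in floxed and 2.24 ± 0.20 among KO libraries (SD, n = 4), and Epb41 minus Gypc, the gene of glycophorin C to which protein 4.1R binds, was 2.50 ± 0.21 and 2.10 ± 0.02, respectively (SD, n = 4). Both had p = 0.0286 by the exact two-sided permutation test and an adjusted p of 0.0571. For Slc4a1 minus Ank1, however, floxed replicate 3 (2.4647) and KO replicate 3 (2.4641) were nearly equal. Slc4a1 minus Epb42 differed by 0.30 (exact two-sided permutation test, p = 0.143).

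Markers of other cell types were summed in the same libraries. Of 17 erythroid markers with a count (18 were listed), 4 were called higher and 0 lower, and 2 are also on the list of other membrane genes. Among all genes, 0.452% were called higher, 0.74% were called lower, and 1.22% were higher at an adjusted p under 0.05. All 17 had a log2 fold change above 0, with a median of 1.21. The summed level of the 17 was 27975 to 70521 CPM in floxed and 123072 to 295387 CPM in KO libraries. Without floxed replicate 3, 12 of the 17 were called higher, against 2.47% of all genes. With the block for same-numbered libraries, 0 of the 17 and 0 of the 8 members were called higher, against 0.12% of all genes. Floxed replicate 3 had the highest level among floxed libraries for all 17. Of 8 megakaryocyte and platelet markers, 5 were called higher, and 1 (Pf4) with the block. Their sum was 70.1 to 136 CPM in floxed and 235 to 282 CPM in KO libraries, and that of floxed replicate 3, at 105 CPM, lay within the floxed range. For 7 of the 8, however, floxed replicate 3 was the highest floxed library, as for all 8 members. Gp1bb went the other way, with 16.0 CPM in floxed replicate 3 and 34.4 to 99.8 CPM in the other floxed libraries. Floxed replicate 3 lay above the KO median for 1 of these 8 markers, against 5 of the 8 members. Of 12 myeloid markers, 0 were called and 11 had a value below 0, with sums of 18742 to 59290 CPM in floxed and 28158 to 34459 CPM in KO libraries. The lowest myeloid sum, 18742 CPM, was that of floxed replicate 3, in which the members were high. B and plasma cell markers summed to 1017 to 1367 CPM in floxed and 1019 to 1202 CPM in KO libraries, with 1 of 8 (Jchain) called lower and 1 (Cd79a) higher at an adjusted p under 0.05 without reaching the threshold on size. Every KO library was above every floxed library for 3 of these 8, as for 7.1% of all genes. The same held for 10 of the 17 erythroid, 6 of the 8 megakaryocyte and platelet, and 1 of the 11 tested LT-HSC markers. It held for 0 of the myeloid and 0 of the T and NK cell markers. T and NK cell markers summed to 63.6 to 97.6 and 46.7 to 49.6 CPM, with 1 of 8 called lower, and LT-HSC markers to 90.3 to 97.7 and 87.8 to 104 CPM, with 0 of 11 tested called. The part of these cells in the levels of the members was not tested.

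The members and haemoglobin, the oxygen carrier of the same cells, did not keep 1 ratio over the libraries. The summed level of the members was 1847, 5329, 1662 and 1814 CPM for floxed replicates 1, 3, 4 and 5. For KO replicates 2, 3, 4 and 5 it was 4642, 4470, 5050 and 5066 CPM. Relative to 100 CPM of haemoglobin this was 7.09, 8.19, 3.33 and 3.65 CPM in the floxed and 3.32, 3.81, 2.14 and 1.75 CPM in the KO libraries. Floxed replicate 3 thus reached the member sum of the KO libraries with less haemoglobin than any of them, and KO replicates 4 and 5 had the least of the members for their haemoglobin.

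**Figure D5:**
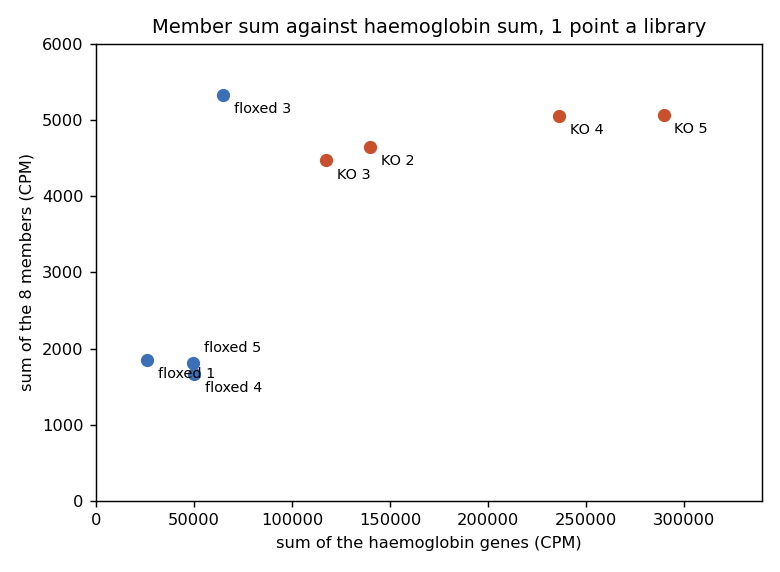
Summed CPM of the 8 members against summed CPM of the haemoglobin genes, 1 point for each library, blue for floxed and orange for KO. Floxed replicate 3, at 5329 CPM for the members and 65077 CPM for haemoglobin, lies at the height of the KO points and to their left.

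The genes most like the members over the 8 libraries were sought among 13362 tested genes with a mean of at least 1 CPM and a gene name. Likeness was the Pearson correlation of log2(CPM + 1) with the mean of the standardized members. The 5 highest were Fn3k, which encodes fructosamine 3-kinase (r = 0.9996), Fech, which encodes ferrochelatase, the last enzyme of haem synthesis (r = 0.9996), Prnp, the prion protein gene (r = 0.999), Prn, whose counts are nearly those of Prnp (r = 0.999), and Dnaja4, which encodes a chaperone of the DnaJ family (r = 0.999). Fn3k had 14.4, 53.3, 12.2 and 12.5 CPM in the floxed and 46.8, 45.8, 47.3 and 47.7 CPM in the KO libraries. As for Slc4a1 and Tmod1, floxed replicate 3 lay above all KO libraries, and its log2 fold change was 1.02 (adjusted p = 0.232 by edgeR's quasi-likelihood test). These correlations are over 8 libraries that share their depth and the split of floxed replicate 3 from the other floxed libraries, and they are given as a description.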

How the data were processed

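RNA was sequenced from the sorted LT-HSCs of 4 floxed and 4 KO mice. The submitters' processing notes and the methods name FastQC, Trim Galore and Bowtie 2 with GRCm38/mm10 reference transcripts, and the tool that counted reads is not given in the sources used here. The authors deposited raw counts for 138930 Ensembl transcripts per library, without normalization. In all 8 files the deposited values are whole-number counts, although 7 tab-separated files were recorded as another unit for an automatic check that reads them at commas. The counts cover the whole span of a transcript: of 1117 pairs of transcripts with the same span and different exons, 99.8% had equal counts in all 8 libraries. Strand was not used in what the counts show, and reads in overlapping genes count for both.

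GENCODE M21 gave the gene of each transcript (138789 matched), and a gene was represented by the transcript that had most counts in the 8 libraries together. Genes were filtered with filterByExpr, normalized by TMM and tested with the quasi-likelihood test of edgeR 4.0.16 under R 4.3.3, and p-values were adjusted by Benjamini-Hochberg over 21902 genes. DESeq2 1.42.0, limma-voom (limma 3.58.1), other filters and scalings, other choices of libraries and leaving out each library were alternatives, and the fits were tested on simulated data. Nested transcripts of the members as rows of their own, and libraries 3 to 5 without a block, were added after the data had been seen. For pairs of genes, an exact two-sided permutation test was run on log2(CPM + 1). Python 3.11.15 was used for the other steps.

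The members and lists were chosen with earlier results of these data known. Genes named are the members, every gene of the 2 other lists that was called or had one of the 3 largest or 3 smallest log2 fold changes, the genes of the 10 pairs (1 pair is not reported here), genes that overlap a member, the 5 genes most like the members, and Ociad1. Markers named in the checks of cell types, and Sptan1, were chosen after their values were seen. Libraries with the numbers 3, 4 and 5 exist in both genotypes but come from different mice. Their deviations from the genotype means correlated across genes in all 3 pairs (r = 0.427, 0.454 and 0.707). Pairs with unlike numbers within 1 to 3 or within 4 and 5 correlated about as much (r from 0.359 to 0.711), so these values do not show a pairing by number. A block for the replicate number was run as an alternative, while the main comparison has no block, since the methods name none. The methods name 4 independent mice for each genotype, so no library was counted as a repeat. Libraries of 1 genotype differed by more than counting noise (chi-square per degree of freedom from 11.3 to 310), which cannot by itself tell repeats from mice. The closest pairs were KO 4 and 5 (11.3), floxed 4 and 5 (16.2) and KO 2 and 3 (17.1), with all others at 83.0 or above. P-values measure the spread between mice, which in the fit of libraries 4 and 5 is that within close pairs.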

Additional observations from a re-analysis of the deposited data

Results flagged for a closer look

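In groups of 4 libraries, the highest or lowest library was compared with the rest by Dixon's ratio at its 95% critical value on log2(CPM + 1), for the 8 members and their sum in each genotype. Of 18 groups, 5 held a library that stood apart, against 0.9 that chance gives at 1 in 20, and in all 5 it was floxed replicate 3, above the other floxed libraries. The members share their libraries, so the 5 are not independent. Sptb was at 9.26 in this library, with the other floxed libraries between 7.48 and 7.70. Ank1 was at 8.85, against 6.84 to 6.95. Slc4a1 was at 11.3, against 9.59 to 9.77. Rhd was at 7.46, against 5.56 to 5.74. The sum of the 8 members was at 12.4, against 10.7 to 10.9. No KO library stood apart in any of these measures.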

How the results depend on the processing

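Other scalings, filters and tests of all 8 libraries called at most 1 member, and other choices of libraries up to 4. Of all genes, 261 were called, and 503 with DESeq2, 651 at the adjusted p alone, 44 in libraries 3 to 5 with a block for same-numbered libraries, 23 in those libraries without the block, 521 with a term for libraries 4 and 5, 2 in libraries 1 to 3, 1061 in libraries 4 and 5, and 51 to 857 with 1 library left out. The highest of these was without floxed replicate 3. No member was called, and 1 (Rhd) was called without a filter on low counts and 1 (Rhd) with the term, 4 in libraries 4 and 5, and 0 to 4 with 1 library left out. The median of the members (0.87) was 1.54 in libraries 4 and 5, and 0.71 to 1.52 with 1 library left out, the highest again without floxed replicate 3. Of the other membrane genes, 1 was called, and 2 without a filter, with DESeq2, with limma-voom, at the adjusted p alone and with the term, 0 without overlapping genes, with the block, in libraries 3 to 5 and in libraries 1 to 3, 10 in libraries 4 and 5, and 0 to 9 with 1 library left out. In libraries 1 to 3 the sign turned for Epb42 (-0.080), Actb (0.29) and Tpm3 (0.078), and in libraries 4 and 5 for Xk (0.24), Ank3 (-0.023) and Gm10300 (0.54). With 1 library left out, Xk ranged from -0.56 to 0.17 and Gm10300 from -1.55 to 0.014, both turning without floxed replicate 3. The cause was not tested. In libraries 3 to 5 with the block, calls were lost for Icam4, the 4 erythroid markers, 4 of the 5 megakaryocyte markers, Jchain and Ncr1. No call of a member or relative changed, with a lowest adjusted p of 0.141 among members in edgeR's test. That fit also leaves out floxed replicate 1 and KO replicate 2, and libraries 3 to 5 without the block called 0 of the other membrane genes too. The loss of calls thus cannot be laid to the block, and its part was not tested. Other pseudocounts, sums over transcripts and single libraries left out turned the sign of 0 of the 10 pairs. Leaving out overlapping genes leaves no value for Sptb, Ank1, Epb41 and Tmod1. Depth did not limit the members, each with at least 1083 counts in a library.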
